A study of Homo sapiens with 12 samples.

Results

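The transcripts of 126 genes for the mitochondrial ribosome and the respiratory chain were followed on 12 expression arrays of RCC4 cells in which MESH1, ATF4 or both had been silenced by siRNA. The genes were taken by name alone. Every probe set that the platform annotation ties to exactly 1 symbol beginning with MRPL, MRPS, NDUFA, NDUFB, NDUFC, NDUFS, NDUFV, SDH, UQCR, COX4 to COX8 or ATP5 was included, which gave 173 of the 19064 probe sets with a symbol of their own and 126 of 11963 genes. By name they comprise 31 proteins of the large and 20 of the small subunit of the mitochondrial ribosome, 5 core and 23 accessory subunits and 5 assembly factors of complex I, 3 subunits and 2 assembly factors of complex II, 6 subunits of complex III, 13 of complex IV and 15 of complex V, with ATP5IF1, the inhibitor of the ATP synthase. Large and small mitoribosomal subunits were assigned by the letters MRPL and MRPS alone. The place of each protein in the ribosome was not checked, so either class can hold proteins of the other subunit. A pseudogene, ATP5MC2P1, and an antisense transcript, NDUFB2-AS1, also match the names. SDHB was not analysed here.

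The respiratory chain passes electrons from NADH through complex I, or from succinate through complex II, to complex III and by cytochrome c to complex IV, where oxygen is reduced. The proton gradient built on the way drives complex V, the ATP synthase. Most subunits are encoded in the nucleus and imported, while a small core is encoded in mitochondrial DNA and made by the mitochondrial ribosome, whose own proteins are nuclear products. Transcription factors such as NRF1, the ETS factor GABPA and YY1 are known regulators of these nuclear genes. ATF4 is the transcription factor through which the integrated stress response acts, and MESH1 is a cytosolic NADPH phosphatase encoded by HDDC3.

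RCC4 is a human cell line derived from clear cell renal carcinoma, cultured here in high-glucose medium. The 4 groups of 3 arrays received 40 pmol of siRNA and were collected at 72 h, and the labels call them biological triplicates. The groups are siNT (a commercial non-targeting siRNA), siMESH1 (a lone siRNA sequence against MESH1), siATF4 (a pool of siRNAs against ATF4) and siMESH1+siATF4 (both). How the amount was split in the double transfection is not given in the sources used here, and with a lone sequence an off-target effect of siMESH1 and the loss of MESH1 cannot be told apart. The paper regards genes changed by siATF4 alone as off-target, because ATF4 is little expressed in RCC4 cells without stress, and leaves them out. The same siATF4 pool served both groups, so its off-target effects and the loss of ATF4 cannot be told apart here either. The comparisons ask how far ATF4 takes part in the transcriptional response to MESH1 knockdown.

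All values are log2 signals minus the siNT mean of the same probe set, averaged over the probe sets of a gene. They are differences and not levels, so genes were neither filtered nor ranked by level, and the identity of the cells could not be checked on marker levels. A gene passed the test at a Benjamini-Hochberg adjusted p under 0.05 in limma over all 11963 genes, and was called when its log2 difference was also 0.5 or more in size. ATF4 itself was at -2.29, -2.33 and -2.30 on the siATF4 arrays and at -2.27, -2.46 and -2.23 on the siMESH1+siATF4 arrays, against -0.015, -0.10 and 0.035 with siMESH1. HDDC3 had 0 probe sets, so the MESH1 knockdown is not checked by these arrays.

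Large parts of the transcriptome moved beside the mitochondrial genes. All 26 genes of a cell division list were called lower in every silenced group against siNT, with medians of -1.95 in siMESH1+siATF4, -1.72 in siMESH1 and -1.44 in siATF4. Of all genes 9.65%, 8.19% and 6.52% were called in the same order. The mean of 10 housekeeping genes was at -0.35 with siMESH1, -0.16 with siATF4 and -0.24 with both, and the 3′ minus 5′ signal of ACTB at -0.11, -0.29 and -0.30. The part of cell division, scaling and RNA quality in the results was not tested beyond the values given here. Centring each array on the housekeeping mean would lift the median over all genes in siMESH1 vs siNT from 0.03 to 0.38. In siATF4 vs siNT that median would be at 0.18, in siMESH1+siATF4 vs siNT at 0.25 and in the interaction at -0.29. Counts of members after this centring include that shift of all genes. The share of all genes passing on that scale was not counted. The distance of a gene list from the median of all genes does not depend on such scaling, and it is given for the classes in siMESH1 vs siNT and for some of them in the other comparisons. The housekeeping genes themselves differed in siMESH1 vs siNT, with TFRC, the transferrin receptor, at -1.17, HPRT1 at -0.66 and PGK1 at -0.53 furthest from 0, and 7 of the 10 passed the test as lower. The median of the 10 was -0.26, and centring on it, an alternative chosen after seeing the data, left 9 members passing as lower and 67 as higher in siMESH1 vs siNT.

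In siMESH1 cells, the mitochondrial ribosome and respiratory chain transcripts lay mostly below the rest of the transcriptome, with 100 of 126 genes under the median of all genes and a median of -0.13 relative to it. UQCRQ (complex III), MRPS34 (small mitoribosomal subunit) and ATP5MC1 (rotor ring of the ATP synthase) were called lower in limma and 0 members were called higher, also at an unadjusted p, where 8.19% of all genes were called. On the deposited scale 41 members passed the test as lower and 7 as higher, against 16.3% and 17.3% of all genes. After housekeeping centring, which put the median over all genes at 0.38, 3 passed as lower and 99 as higher. UQCRQ, MRPS34 and ATP5MC1 are the 3 that passed as lower on both scales, although after housekeeping centring their differences of -0.40, -0.165 and -0.15 were too small to be called and 11 other members were called higher. All 7 higher members, MRPS18C, MRPS27, MRPS35, NDUFA5, NDUFB2, UQCR11 and UQCRB, passed as higher on both. In these bulk samples, fewer cells with a transcript and less of it per cell cannot be told apart.

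UQCRQ, which encodes a small subunit of complex III, was at -0.72, -0.74 and -0.79 on the siMESH1 arrays and at -0.05, 0.07 and -0.015 on the siNT arrays. The groups were far apart, and the difference of -0.75 (SE 0.05), a fold of 1.68, had a limma adjusted p of 1.4e-07. ATP5MC1, a gene for subunit c, stood at -0.54, -0.53 and -0.44 with siMESH1 against -0.02, 0.06 and -0.04 with siNT (difference -0.50, SE 0.05, limma adjusted p 5.1e-06). ATP5MC1 was read by a lone probe set of a type that can match related transcripts. MRPS34, a small subunit protein particular to mitochondrial ribosomes, was at -0.52, -0.56 and -0.47 against 0.00, 0.04 and -0.04 (difference -0.52, SE 0.06, limma adjusted p 2.5e-05). No siMESH1 array overlapped the siNT arrays for any of the 3 genes, but such separation was common, with 64 members fully lower and 16 fully higher. The share over all genes was not counted. For ATP5MC1 and MRPS34 the size sits close to the 0.5 limit, and the number of called members in siMESH1 vs siNT dropped from 3 to 1 when siNT replicate 2 or siMESH1 replicate 2 was left out.

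**Figure D1:**
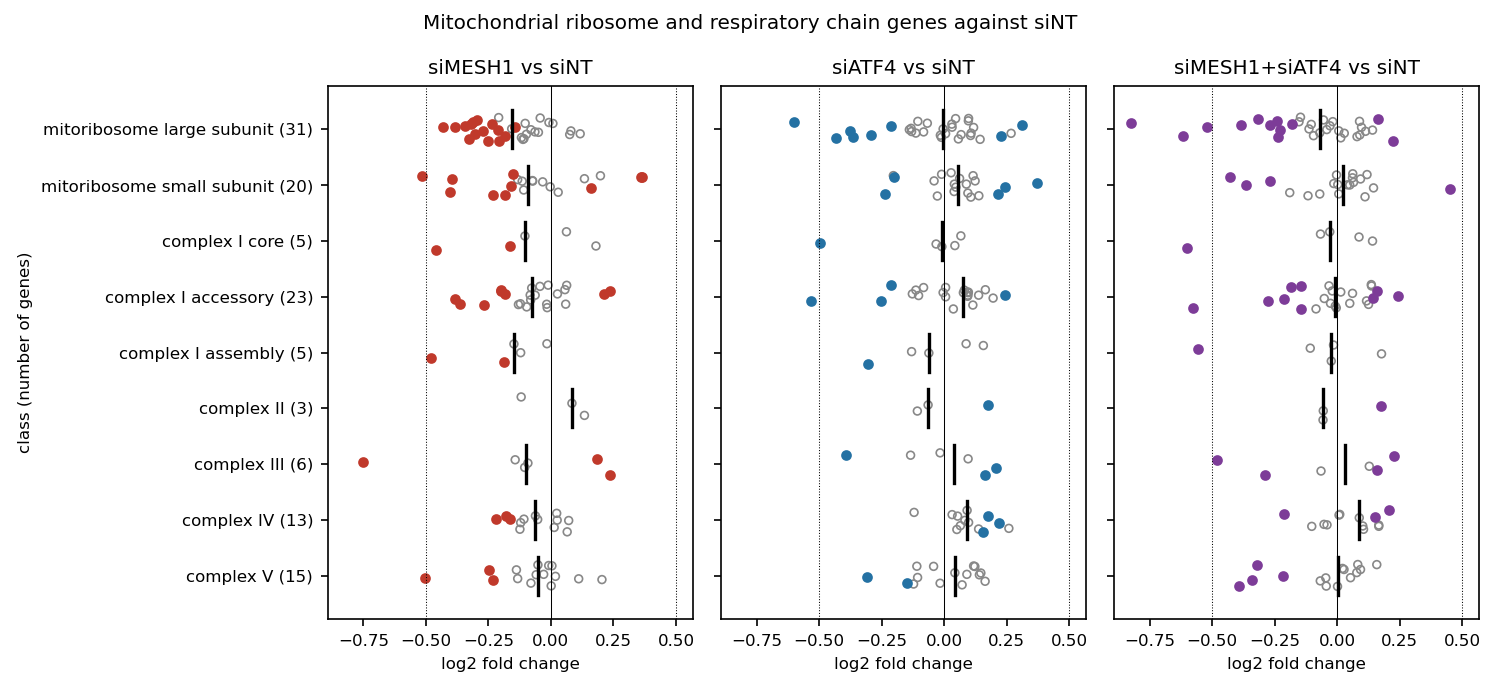
Log2 fold change (horizontal axis) against siNT of the subunit genes and complex I assembly genes, in rows by class with the number of genes, for siMESH1 (left), siATF4 (middle) and siMESH1+siATF4 (right). Filled points passed the limma test at an adjusted p under 0.05, open points did not, thick bars are class medians and dotted lines mark a log2 change of 0.5. With siMESH1, 15 of 31 large mitoribosomal genes are filled left of 0 and 0 right of it on the deposited scale, while after housekeeping centring 0 pass as lower and 19 as higher.

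By class, the large subunit of the mitochondrial ribosome lay at -0.185 relative to the median of all genes in siMESH1 cells, with 28 of its 31 genes below that median. The small subunit lay at -0.12, with 14 of 20 below. On the deposited scale 15 of 31 large subunit genes passed as lower and 0 as higher, which became 0 lower and 19 higher after housekeeping centring. MRPL15, MRPL48, MRPL35 and MRPL16, all large subunit proteins, had differences of -0.43, -0.38, -0.34 and -0.33 on the deposited scale. Of the 20 small subunit genes, 7 passed as lower and 3 as higher on the deposited scale, and 1 as lower and 16 as higher after housekeeping centring. MRPS18B (-0.40) and MRPS17 (-0.39) followed MRPS34 among the falls on the deposited scale. MRPS18C (0.365) and MRPS27 (0.36), a pentatricopeptide repeat protein of the small subunit, rose on either scale.

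On every single siMESH1 array the large mitoribosomal subunit had a lower median than the cytosolic ribosomal proteins. The median of the 31 large subunit genes was -0.17 ± 0.01 (SD, n = 3) on the siMESH1 arrays, and on each of them it stood below the median of all members, by between -0.10 and -0.06. Cytosolic ribosomal proteins, which build the ribosome outside mitochondria, had a median of 0.09 ± 0.01 (SD, n = 3) on the same arrays. Of these 56 genes 12 lay below the median of all genes. On the deposited scale 16 passed as higher and 2 as lower, where 17.3% and 16.3% of all genes did. After housekeeping centring 53 passed as higher and 1 as lower. Relative to the median of all genes, the cytosolic list was at 0.06 and the large mitochondrial subunit at -0.185.

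**Figure D2:**
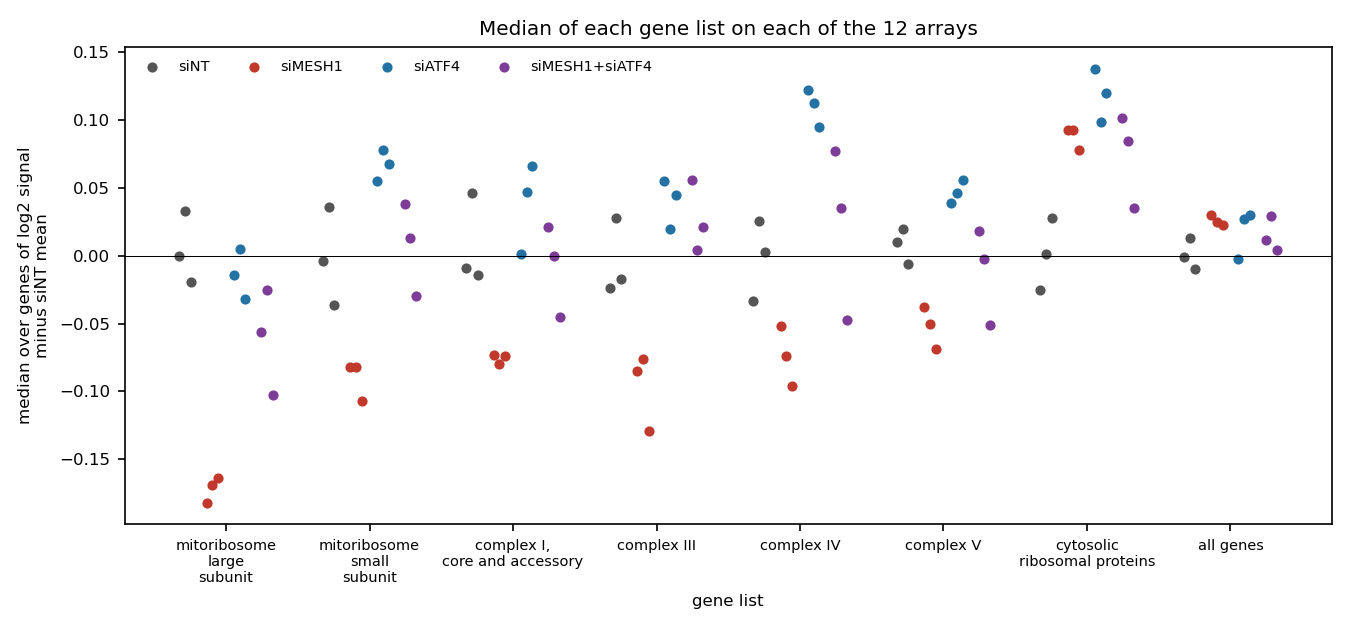
Median over the genes of a list, as log2 difference from the mean of siNT (vertical axis), 1 point for each of the 12 arrays, coloured by siRNA group, for 8 gene lists. On the deposited scale the 3 siMESH1 points of the large mitoribosomal subunit lie between -0.18 and -0.16 and those of all genes between 0.02 and 0.03, and housekeeping centring would lift every siMESH1 point, all genes included, to values above 0.

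Respiratory chain genes in siMESH1 cells lay closer to the median of all genes than the large mitoribosomal subunit, with complex I core subunits at -0.13, accessory subunits at -0.105, complex III at -0.13, complex IV at -0.09 and complex V at -0.08 relative to it. The 3 complex II subunits lay at 0.06, above that median, the 5 complex I assembly factors at -0.18 and the 2 of complex II at -0.12. In complex I, NDUFS1, a core subunit that carries iron-sulfur clusters, was at -0.47, -0.50 and -0.41 (difference -0.46, SE 0.07, limma adjusted p 0.0002), and NDUFA10 (-0.38) and NDUFA9 (-0.365) led the accessory subunits. Of 28 complex I subunits, 8 passed as lower on the deposited scale and 2, NDUFA5 (0.24) and NDUFB2 (0.21), as higher. After housekeeping centring 0 core and 0 accessory subunits passed as lower, and 4 of 5 core and 20 of 23 accessory subunits passed as higher. NDUFAF4, an assembly factor of complex I, was at -0.52, -0.49 and -0.425 (difference -0.48, SE 0.06, limma adjusted p 4.5e-05).

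Among the later complexes, none of the 3 complex II subunits passed in siMESH1 vs siNT, with SDHA at -0.12, SDHC at 0.08 and SDHD at 0.13. In complex III, UQCRB (0.24) and UQCR11 (0.18), both small subunits, rose beside the fall of UQCRQ. Complex IV had 3 of 13 genes passing as lower on the deposited scale, COX8A (-0.22), COX5A (-0.18) and COX6A1 (-0.165), and after housekeeping centring these passed as higher at 0.13, 0.17 and 0.19. In complex V, ATP5F1B (-0.25), the catalytic beta subunit, and ATP5MC3 (-0.23), a further subunit c gene, passed as lower with ATP5MC1. ATP5IF1 was at -0.28, and housekeeping centring turned the signs of ATP5F1B, ATP5MC3 and ATP5IF1.

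The promoters of the members called lower in either single silencing are shown, so that their letters can be set beside the values. MRPL13 had no promoter entry. Sequences are from RefSeq on GRCh38.p14 and hold the 250 bases before the annotated start, written 5′ to 3′ along the gene, with capitals for each match to CCGGAAG, the letters of an ETS site, or to its reverse complement, which reads CTTCCGG. UQCRQ (chromosome 5, 132866642 to 132868847, plus strand) holds 1 match, 54 to 48 bases upstream, in chr5:132866392-132866641. MRPS34 (chromosome 16, 1771895 to 1773134, minus strand) holds 3, at 71 to 65, 29 to 23 and 19 to 13 bases upstream, in chr16:1773135-1773384. ATP5MC1 (chromosome 17, 48892787 to 48895871, plus strand) holds no match to any letters searched in chr17:48892537-48892786. NDUFAB1 (chromosome 16, 23581014 to 23596316, minus strand), called lower with siATF4, likewise holds none in chr16:23596317-23596566.
UQCRQ: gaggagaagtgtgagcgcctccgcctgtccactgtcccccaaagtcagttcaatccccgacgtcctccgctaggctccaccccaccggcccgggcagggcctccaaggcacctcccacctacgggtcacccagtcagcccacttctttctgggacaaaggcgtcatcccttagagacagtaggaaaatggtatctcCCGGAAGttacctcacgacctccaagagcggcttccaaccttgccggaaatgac
MRPS34: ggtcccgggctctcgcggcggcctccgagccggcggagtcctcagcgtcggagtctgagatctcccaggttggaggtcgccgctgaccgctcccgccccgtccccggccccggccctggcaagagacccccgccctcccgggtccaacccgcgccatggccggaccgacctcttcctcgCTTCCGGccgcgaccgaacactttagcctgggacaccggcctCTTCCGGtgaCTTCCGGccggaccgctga
ATP5MC1: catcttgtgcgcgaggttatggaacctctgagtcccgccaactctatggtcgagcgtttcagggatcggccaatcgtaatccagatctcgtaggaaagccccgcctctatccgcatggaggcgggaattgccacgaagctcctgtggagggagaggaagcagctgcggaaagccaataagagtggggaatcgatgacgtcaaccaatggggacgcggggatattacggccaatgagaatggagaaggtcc
NDUFAB1: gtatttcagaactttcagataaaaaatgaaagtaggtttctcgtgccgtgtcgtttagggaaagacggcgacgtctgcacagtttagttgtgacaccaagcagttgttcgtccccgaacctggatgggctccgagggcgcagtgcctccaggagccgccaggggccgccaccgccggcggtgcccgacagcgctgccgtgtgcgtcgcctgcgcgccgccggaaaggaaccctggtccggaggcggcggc

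Across the 111 members with a promoter entry, searched on both strands from 250 bases before to 50 after the start, 33.3% held CCGGAAG, 27.0% the NRF1 core TGCGCA and 26.1% the YY1 letters AAGATGG. Among 9562 array genes the shares were 15.2%, 11.5% and 7.2%, and among all 27305 promoters 10.7%, 8.4% and 6.1%. Any of the 3 was present in 69 members (62.2%) against 29.2% of array genes, with 71.1% of 45 mitoribosomal promoters and 59.6% of 57 promoters of respiratory chain and ATP synthase subunits. The composite C/EBP and ATF letters TGATGNAAT were found in 0 of 111 members and 0.5% of array genes. These matches describe the letters in the window and not binding.

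ATF4 silencing by itself left the members near the median of all genes, at 0.02 relative to it with 54 of 126 below. NDUFAB1, the mitochondrial acyl carrier protein that is also an accessory subunit of complex I, and MRPL13, of the large mitoribosomal subunit, were called lower and 0 were called higher, where 6.52% of all genes were called. In siATF4 vs siNT 18 members passed as lower and 13 as higher, against 13.8% and 14.8% of all genes. After housekeeping centring 9 passed as lower, NDUFAB1 and MRPL13 among them, and 80 as higher, and 0 were called lower and 2 higher.

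NDUFAB1 was at -0.555, -0.54 and -0.505 on the siATF4 arrays and at -0.03, 0.03 and 0.00 on the siNT arrays, without overlap. In this comparison 29 members were lower and 36 higher without overlap, and the share over all genes was not counted. The NDUFAB1 difference was -0.53 (SE 0.05), a fold of 1.45, with a limma adjusted p of 5.5e-06. MRPL13 was at -0.48, -0.705 and -0.62 (difference -0.60, a fold of 1.52, limma adjusted p 5e-05). Below the 0.5 limit, the test was passed by NDUFS1 (-0.50), MRPL48 (-0.43), ATP5IF1 (-0.42), UQCRC2 (-0.39), a core protein of complex III, MRPL28 (-0.375) and MRPL42 (-0.365). Each of these 6 also passed as lower after housekeeping centring. Among the higher members MRPL40 was at 0.31, 0.32 and 0.30 and MRPS18C at 0.58, 0.145 and 0.39. The 3 values of MRPL40 lay close together, and those of MRPS18C were widely spread.

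In siATF4 cells complex IV was at 0.07 relative to the median of all genes, with 1 of its 13 genes below that median. COX6B1 (0.22), COX7A2L (0.18) and COX7C (0.16) passed as higher on the deposited scale and 0 passed as lower. The large mitoribosomal subunit was at -0.025 relative to all genes, with 17 of 31 below, and 6 passed as lower and 2 as higher on the deposited scale. Complex II gave a lone change, SDHC at 0.17 (limma adjusted p 0.024).

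With both genes silenced, more members were called lower than with either siRNA by itself, but calls over all genes also rose. They were 1154 with both siRNAs, 980 with siMESH1 and 780 with siATF4. MRPL13 (-0.83), MRPL48 (-0.62), NDUFS1 (-0.60), NDUFAB1 (-0.58), NDUFAF4 (-0.56), ATP5IF1 (-0.54), SDHAF3 (-0.53) and MRPL42 (-0.52) were called and 0 were called higher. That is a smaller share of the members than the 9.65% of all genes that were called. In siMESH1+siATF4 vs siNT 30 members passed as lower and 12 as higher, against 16.0% and 19.5% of all genes, and 12 passed as lower and 90 as higher after housekeeping centring. All 8 called genes were among the 12, of which 1 was still called. The large mitoribosomal subunit was at -0.08 relative to the median of all genes, with 21 of 31 below it, and complex IV at 0.075, with 6 of 13 below. The 3 comparisons with siNT share its arrays, so their values are set side by side with no test of their likeness.

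MRPL13 was at -0.68, -0.82 and -0.98 on the siMESH1+siATF4 arrays, at -0.705 to -0.48 with siATF4 and at -0.34 to -0.29 with siMESH1. Its fold against siNT was 1.77 with both siRNAs (limma adjusted p 2e-06). The siMESH1+siATF4 arrays of MRPL13 lie below every siMESH1 array and overlap the siATF4 arrays. SDHAF3, an assembly factor of complex II, was at -0.52, -0.595 and -0.48 with both siRNAs, below the -0.30 to -0.25 of siMESH1 and the -0.32 to -0.29 of siATF4. NDUFS1 was at -0.51, -0.63 and -0.655 with both, and siATF4 arrays of it ran from -0.63 to -0.36. The ranges of NDUFS1 overlap, as do those of ATP5IF1, at -0.48, -0.485 and -0.67 with both and -0.29, -0.48 and -0.47 with siATF4. MRPL13, NDUFS1, ATP5IF1 and MRPL42 were each read by a lone probe set of a design that can also match related transcripts. They dropped out when such probe sets were left out. The 5 calls of siMESH1+siATF4 vs siNT then made therefore include a member not called with all probe sets. ATP5F1C was at 0.50 on its probe set of the other design, against -0.11, -0.12 and -0.19 on those left out.

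**Figure D3:**
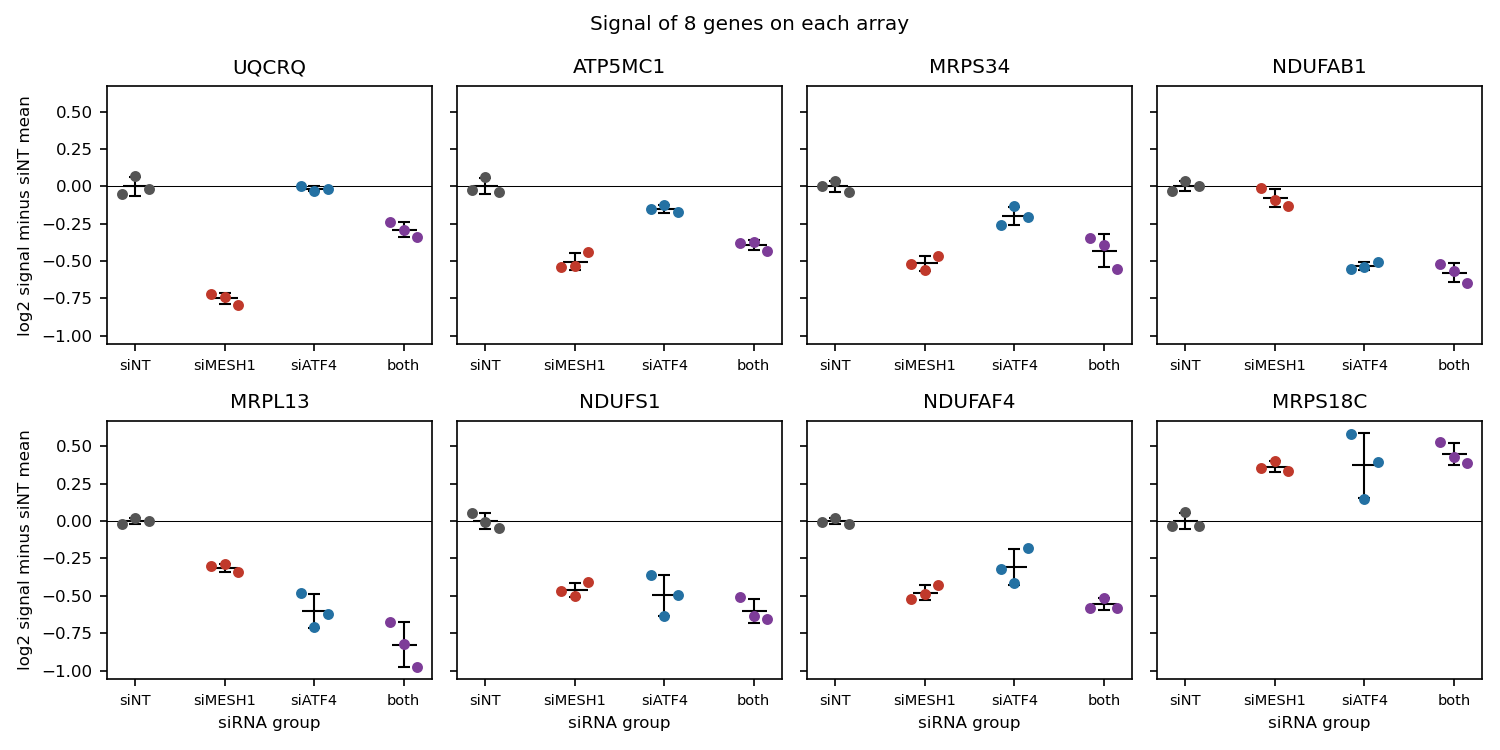
Signal of 8 genes by array and siRNA group, as log2 difference from the mean of siNT on the vertical axis, with the mean and SD of 3 arrays in black. UQCRQ lies at -0.79 to -0.72 with siMESH1 and at -0.34 to -0.24 with both siRNAs, and NDUFAB1 lies below -0.50 in both groups that received siATF4. After housekeeping centring the siMESH1 values of NDUFS1, NDUFAF4 and MRPL13 no longer pass as lower.

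Silencing of ATF4 was measured on separate arrays, with the same siRNA pool, in siATF4 vs siNT and in siMESH1+siATF4 vs siMESH1. The second comparison called NDUFAB1 (-0.50) and MRPL13 (-0.515) lower and 0 higher, where 6.10% of all genes were called, but 0 without siMESH1+siATF4 replicate 3 and 1 without siMESH1 replicate 1. In it 16 members passed as lower and 24 as higher on the deposited scale, against 12.4% and 15.6% of all genes, and 33 as lower and 9 as higher after housekeeping centring. The lower members of both comparisons had 12 genes in common, 66.7% of the first list and 75.0% of the second, where all genes shared 50.2% and 56.3%. These 12 are NDUFAB1, NDUFA8 and NDUFC1 of complex I, UQCRC2 of complex III, SDHAF3, ATP5IF1 and the ribosomal genes MRPL13, MRPL19, MRPL28, MRPL42, MRPL48 and MRPS10.

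UQCRC2 was at -0.38, -0.39 and -0.41 with siATF4 and at -0.45, -0.51 and -0.48 with both siRNAs, against -0.08, -0.10 and -0.14 with siMESH1. Adding siATF4 to siMESH1 thus gave -0.37 (limma adjusted p 5.5e-05), close to the -0.39 of siATF4 against siNT. Of the higher members 6 were shared, 46.2% of the first list and 25.0% of the second, against 56.1% and 53.0% of all genes. They are COX6B1 and UQCR10, subunits of complexes IV and III, and MRPL40, MRPL57, whose probe sets differed in sign in the second comparison, MRPS16 and MRPS33. No member passed in opposite directions. The log2 fold changes of the 126 members in the comparisons had a Pearson r of 0.64, and those of all 11963 genes 0.60, as a description across genes of the same arrays and base compositions.

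**Figure D4:**
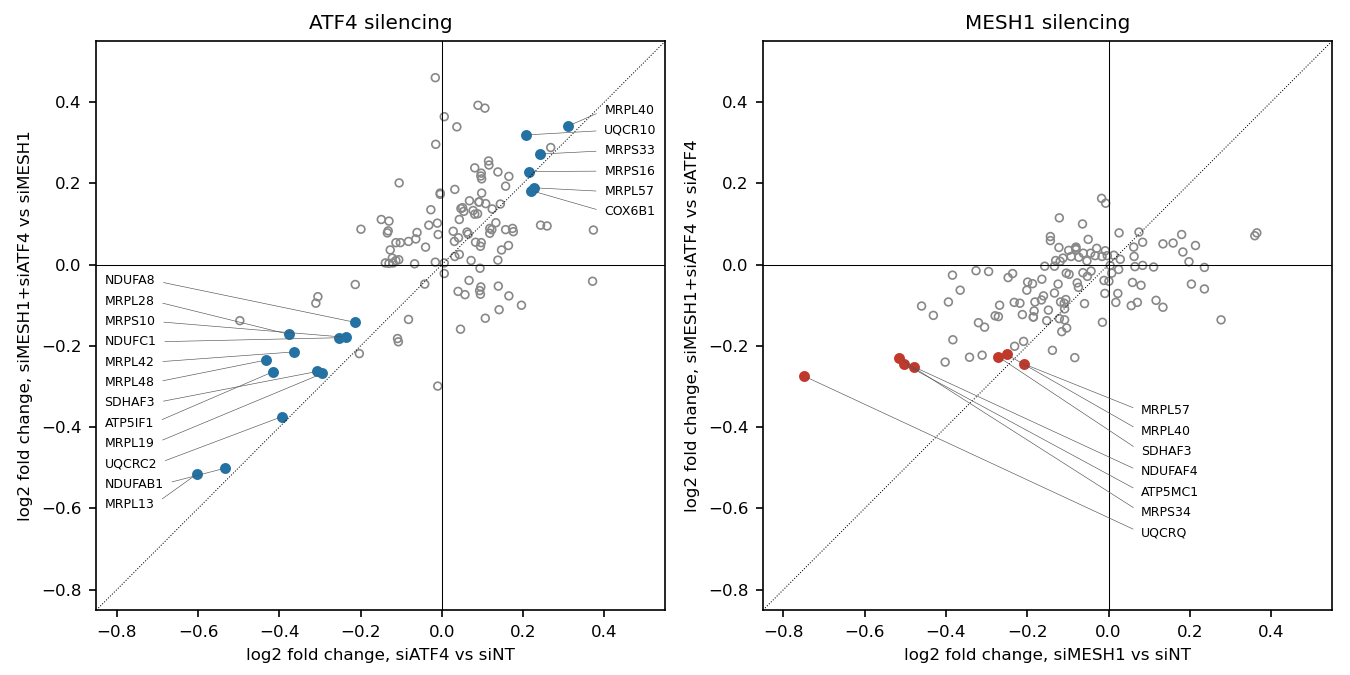
Log2 fold changes of the 126 members on the deposited scale for ATF4 silencing (left, siATF4 vs siNT on the horizontal and siMESH1+siATF4 vs siMESH1 on the vertical axis) and MESH1 silencing (right, siMESH1 vs siNT and siMESH1+siATF4 vs siATF4). Filled, named points passed the limma test in both comparisons and the dotted line marks equal values, with 12 lower and 6 higher members named on the left and 7 lower ones on the right, 2 of which pass as lower on the vertical axis after housekeeping centring.

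Adding siMESH1 to siATF4 moved fewer members. In siMESH1+siATF4 vs siATF4 10 members passed as lower and 0 as higher on the deposited scale, against 5.57% and 6.16% of all genes, and 0 were called by limma, also at an unadjusted p, where limma called 1.63% of all genes. The 10 became 4 without siATF4 replicate 3 and 6 without siATF4 replicate 2 or siMESH1+siATF4 replicate 3. After housekeeping centring 2 passed as lower, UQCRQ and ATP5MC1, and 4 as higher. On the deposited scale 7 of the 10 had also passed as lower in siMESH1 vs siNT, which is 70.0% of the second list and 17.1% of the first, against 83.5% and 28.5% of all genes. They are UQCRQ (-0.27), ATP5MC1 (-0.24), MRPS34 (-0.23), NDUFAF4 (-0.25), SDHAF3 (-0.23), MRPL40 (-0.22) and MRPL57.

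UQCRQ shows the pattern most plainly. Its siATF4 arrays were at 0.00, -0.03 and -0.02 and its siMESH1+siATF4 arrays at -0.24, -0.29 and -0.34, between siATF4 and siMESH1 with no overlap. With both siRNAs 36 members lay fully below siATF4 and 44 fully above siMESH1, and the shares over all genes were not counted. For UQCRQ, adding siATF4 to siMESH1 gave 0.46 (limma adjusted p 1.9e-05), and adding siMESH1 to siATF4 gave -0.27 (limma adjusted p 0.0035). The r across members between both MESH1 comparisons was 0.58, and across all genes 0.69, again as a description across genes.

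The difference between the 2 effects of siMESH1 was tested as an interaction, positive where siMESH1 lowered a gene less in siATF4 cells than in siNT-treated ones. In the interaction 9 members passed as higher and 2 as lower on the deposited scale, against 7.84% and 4.06% of all genes, and 0 were called by limma, also at an unadjusted p, where 4.31% of all genes were. The 11 became 4 to 6 in fits that left out any 1 of siNT replicates 1 and 2, siMESH1 replicates 1 and 2, siATF4 replicates 1 and 3 and siMESH1+siATF4 replicates 1 and 2. UQCRQ had the highest value at 0.48 (SE 0.07, limma adjusted p 0.00071), and it alone of the 9 passed as higher after housekeeping centring, where 69 members passed as lower and 1 as higher. On that scale the median over all genes in the interaction was -0.29. Relative to the median of all genes the members were at 0.07 in the interaction, with 38 of 126 below, and the large mitoribosomal subunit at 0.13, with 5 of 31 below. All 26 cell division genes passed as higher in the interaction, at 1.14 relative to all genes.

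On the deposited scale several members were low with siMESH1 and near 0 with siMESH1+siATF4. NDUFA10, an accessory subunit of complex I, was at -0.38, -0.34 and -0.425 with siMESH1 and at 0.005, -0.085 and 0.02 with both siRNAs. NDUFA9, a further accessory subunit, was at -0.34, -0.35 and -0.40 and then at -0.01, -0.04 and -0.02. MRPS17 was at -0.41, -0.41 and -0.37 and then at 0.03, 0.00 and -0.04. The 2 groups did not overlap for any of these genes, and 44 members in all were higher on every siMESH1+siATF4 array than on every siMESH1 array. How many of all genes were so separated was not counted. The rises of NDUFA10, NDUFA9 and MRPS17 from siMESH1 to both siRNAs were 0.36, 0.34 and 0.39. They passed on the deposited scale and after housekeeping centring. With that centring, however, their siMESH1 differences from siNT were -0.032, -0.014 and -0.043 and no longer passed as lower. These genes, MRPL16, MRPL40 and the other members given outside the largest changes of a class were chosen for the text after their values were seen.

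Set directly against each other, siMESH1 and siATF4 differed in 50 members. In siMESH1 vs siATF4 40 members passed as lower and 10 as higher on the deposited scale, against 17.6% and 15.9% of all genes, and 11 as lower and 48 as higher after housekeeping centring. UQCRQ (-0.73) and MRPL40 (-0.56) were called lower and 0 were called higher, where 8.66% of all genes were called. MRPL40 fell with siMESH1, at -0.25, -0.22 and -0.29, and rose with siATF4, so that the groups lay on either side of the siNT arrays at 0.045, 0.07 and -0.12, although housekeeping centring takes the siMESH1 difference to 0.10. Complex IV was at -0.18 relative to the median of all genes, with 13 of 13 genes below it, and 8 of the 13 passed as lower on the deposited scale, led by COX6A1 (-0.26), COX5A (-0.23) and COX4I1 (-0.20), while after housekeeping centring 0 of the 13 passed in either direction and COX6A1 was at -0.067. The 10 higher members passed as higher on both scales and include NDUFAB1 (0.46), MRPS27 (0.37), MRPL13 (0.29) and SDHD (0.24).

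Subunits that occur as paralogs did not move as a set. Of the 3 genes for subunit c of the ATP synthase, which encode the same mature protein with different import sequences, ATP5MC1 and ATP5MC3 passed as lower in siMESH1 vs siNT at -0.50 and -0.23, while ATP5MC2 was at 0.20 (limma adjusted p 0.065). The lone probe set of ATP5MC1 is of a type that can match related transcripts. Of the 3 MRPS18 paralogs, MRPS18C passed as higher at 0.365 and MRPS18B as lower at -0.40, and MRPS18A was at -0.13 (limma adjusted p 0.088). MRPS18C rose in all 3 silenced groups, by 0.37 with siATF4 and 0.45 with both siRNAs, and it was read by a probe set that can match related transcripts. In complex IV, COX6A1 passed as lower in siMESH1 vs siNT on the deposited scale at -0.165 and as higher after housekeeping centring, and COX6A2, the heart and muscle form, was at 0.01. COX7A1, likewise a muscle form, was at 0.26 with siATF4 (limma adjusted p 0.11) and COX7A2 at 0.08, so neither passed.

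Other mitochondrial genes outside the name families were counted from fixed lists. Of all genes 16.3% passed as lower and 17.3% as higher in siMESH1 vs siNT on the deposited scale. CYC1, the cytochrome c1 subunit of complex III, was at -0.465 in siMESH1 vs siNT (SE 0.06, limma adjusted p 4.8e-05), and with the mitoribosomal proteins PTCD3 (-0.33), DAP3 (-0.24) and GADD45GIP1 (-0.29) all 4 subunit genes of that list passed as lower on the deposited scale and 0 after housekeeping centring. TTC19, an assembly factor of complex III, was called lower with siATF4 at -0.93 and with both siRNAs at -0.89, against -0.105 with siMESH1. UQCC1, which also serves complex III assembly, had the opposite pattern, with -0.655 in siMESH1, -0.11 in siATF4 and -0.24 with both. Its interaction of 0.52 (limma adjusted p 0.00033) was called. Of 2 further genes of this list with small adjusted p values, ECSIT was called higher with siMESH1 at 0.58 and COA1 lower at -0.69. Of the 23 assembly genes, 6 passed as lower and 4 as higher in siMESH1 vs siNT on the deposited scale and 2 as lower and 18 as higher after housekeeping centring.

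The tricarboxylic acid cycle list, whose enzymes feed electrons to the chain, was at -0.22 relative to the median of all genes in siMESH1 cells, with 14 of 16 genes below. On the deposited scale 10 of 16 passed as lower and 0 as higher, against 16.3% and 17.3% of all genes. After housekeeping centring 1 passed as lower and 9 as higher. DLAT, the acetyltransferase of pyruvate dehydrogenase, was at -0.64 and MDH2, mitochondrial malate dehydrogenase, at -0.43. With both siRNAs DLAT was at -0.20 and MDH2 at -0.06. In siATF4 cells the cycle was at -0.01 relative to all genes, with 9 of 16 below.

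Mitochondrial translation factors and aminoacyl-tRNA synthetases, the enzymes that charge tRNA for the mitochondrial ribosome, were at -0.03 relative to all genes in siMESH1 vs siNT, with 3 of 28 passing in each direction on the deposited scale and 25 as higher and 1 as lower after housekeeping centring. HARS2, for histidine, was at -0.55 with siMESH1, 0.42 with siATF4 and 0.17 with both, and IARS2, for isoleucine, at 0.08, -0.59 and -0.43. Of 20 genes for mitochondrial biogenesis and genome upkeep, 7 passed as lower and 3 as higher in siMESH1 vs siNT on the deposited scale, against 16.3% and 17.3% of all genes. After housekeeping centring 1 passed as lower and 14 as higher. PPRC1, a coactivator of the PGC family, was at -0.60 with siMESH1 and -0.02 with siATF4, whereas TWNK, the mitochondrial DNA helicase, was at -0.24 and -0.71. ESRRG passed as higher with siATF4 at 0.45 and with both at 0.755, but not with siMESH1 at 0.12 (limma adjusted p 0.26). MTERF3 was at -0.46 with siMESH1, -0.345 with siATF4 and -0.48 with both. In the import list of 29, 7 passed as lower and 3 as higher in siMESH1 vs siNT on the deposited scale, against the same 16.3% and 17.3% of all genes. After housekeeping centring these counts were 3 and 23. The chaperonin HSPD1 was lower in every silenced group, at -0.79, -1.12 and -1.41 in siMESH1, siATF4 and siMESH1+siATF4.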

How the data were processed

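RNA from 12 cultures of RCC4 cells was hybridised to Affymetrix expression arrays. The authors made the deposited log2 values with RMA in Affymetrix Expression Console and then subtracted the siNT mean of each probe set. No version of either is given in the sources used here. On the table the siNT means lay within 1.20e-04 of 0, values ran from -3.77 to 3.41, and 0 pairs of arrays were identical. RMA gives all arrays a common distribution, so a shift shared by most transcripts is removed and differences are relative to the bulk of genes. Precision is set by the 3 arrays of a group.

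Of 22277 probe sets 62 were controls, 19064 had 1 symbol (19052 matched by Entrez identifier), 1043 several and 2108 none. Gene values are means of probe sets, and 32 of 126 members had several. Group means were fitted over all 12 arrays at once in limma 3.58.1 (lmFit, eBayes; R 4.3.3) with 8 residual and 4.32 prior degrees of freedom, tested on simulated data. All pairs of groups and the interaction, (siMESH1+siATF4 minus siATF4) less (siMESH1 minus siNT), were tested. Python 3.11.15, pandas 2.3.3, numpy 2.4.6 and matplotlib 3.10.9 were used. Alternatives were centring on the array median, on the mean or median of 10 housekeeping genes, the median of probe sets, probe sets without _s_at and _x_at types, robust eBayes, a replicate block, the t-test of the methods and each array left out. Members, gene lists, motifs and the naming rule were chosen with earlier results of these data known. The rule named members called in a comparison with siNT, in siMESH1+siATF4 vs siMESH1 or in the interaction, the largest rise and fall of each class, complex II, paralog sets, and up to 4 genes of each other list. The 11 probe sets with several symbols were left out of the members. MRPL58, a member by name, was taken out of the list of other subunits after its overlap was seen.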

Additional observations from a re-analysis of the deposited data

Results flagged for a closer look

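For 11 members the effect of siMESH1 differed between cells with siNT and cells with siATF4, by the interaction term in limma at an adjusted p under 0.05. It was 0.48 for UQCRQ, 0.36 for NDUFS1, 0.36 for NDUFA10, 0.31 for MRPL16, 0.31 for MRPL15, 0.30 for MRPS17, 0.30 for NDUFA9, 0.29 for MRPS34 and 0.26 for ATP5MC1, each positive, so that the siMESH1 difference was less negative with siATF4. It was -0.24 for UQCRB and -0.24 for MRPS30. Of all genes 7.84% passed as higher and 4.06% as lower in the interaction. The 9 positive and 2 negative values among 126 members are smaller shares than these. After housekeeping centring UQCRQ was the only one of the 9 positive values still past the test, while UQCRB and MRPS30 both were. Centring on the array median kept the 9 positive values past the test and lost the 2 negative ones. With the replicate number as a block, MRPL15, MRPS34 and ATP5MC1 and both negative values were lost, and 6 positive ones passed. UQCRB was above 0 on all arrays of the 3 silenced groups, at 0.215, 0.22 and 0.27 with siMESH1, 0.24, 0.12 and 0.14 with siATF4 and 0.17, 0.19 and 0.11 with both siRNAs. Its siMESH1+siATF4 value lay with the single silencings and not at their sum.

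A probe set annotated to both MRPS31P5, a pseudogene of a mitoribosomal protein, and THSD1 was left out of the members. It was higher by 0.77 in siATF4 vs siNT (limma adjusted p 0.00022) and by 0.75 in siMESH1+siATF4 vs siNT, with -0.06 in siMESH1 vs siNT. Which of its genes gives the signal was not tested.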

How the results depend on the processing

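After housekeeping centring, members called and members past the test at any size were 11 and 102 in siMESH1 vs siNT, 2 and 102 in siMESH1+siATF4 vs siNT and 7 and 70 in the interaction, and those past the test 89 in siATF4 vs siNT and 6 in siMESH1+siATF4 vs siATF4. The medians of the members became 0.25 in siMESH1 vs siNT, 0.20 in siATF4 vs siNT, 0.23 in siMESH1+siATF4 vs siNT, -0.044 in siMESH1+siATF4 vs siMESH1, 0.039 in siMESH1+siATF4 vs siATF4, 0.095 in siMESH1 vs siATF4 and -0.22 in the interaction. With the housekeeping median in its place, an alternative chosen after seeing the data, 76 passed in siMESH1 vs siNT and 17 in the interaction, 2 were called in siMESH1+siATF4 vs siNT, 5 in siMESH1 vs siATF4 and 1 in the interaction, and the medians were 0.15, 0.12, -0.051, 0.064, 0.13 and -0.089 in siMESH1 vs siNT, siMESH1+siATF4 vs siNT, siMESH1+siATF4 vs siMESH1, siMESH1+siATF4 vs siATF4, siMESH1 vs siATF4 and the interaction. Centring on the array median gave medians of -0.13 in siMESH1 vs siNT and 0.082 in the interaction, 1 call in the interaction and 1 in siMESH1+siATF4 vs siMESH1.

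Under housekeeping centring the sign turned for 30 of the 41 members that had passed as lower in siMESH1 vs siNT. It turned for 8 of 30 such members in siMESH1+siATF4 vs siNT and 10 of 40 in siMESH1 vs siATF4. Only members named by the rule are listed here. In siMESH1 vs siNT they are ATP5IF1 (0.073), ATP5MC3 (0.12), COX6A1 (0.19), COX8A (0.13), MRPL13 (0.041), MRPL42 (0.047), MRPL46 (0.056) and SDHAF3 (0.081). Among the named members the sign also turned for ATP5MC1 in siATF4 vs siNT (0.007) and the interaction (-0.01), and for ATP5MC3 (0.022) and COX8A (0.023) in siMESH1+siATF4 vs siNT. In siMESH1 vs siATF4 it turned for the named members COX6B1 (0.002), COX7A2 (0.005), COX7A2L (0.043) and NDUFAF4 (0.023). Under housekeeping median centring the sign turned for 19 of the 41 lower members in siMESH1 vs siNT and 14 of the 40 in siMESH1 vs siATF4. The named ones are ATP5MC3 (0.017), COX6A1 (0.084) and COX8A (0.031) in siMESH1 vs siNT. In siMESH1 vs siATF4 they are COX4I1 (0.028), COX6B1 (0.034), COX7A2 (0.037), COX7A2L (0.075) and NDUFAF4 (0.055).

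Without probe sets that can match related transcripts fewer members were measured, and those past the test were 25 in siMESH1 vs siNT, 21 in siMESH1+siATF4 vs siNT, 20 in siMESH1+siATF4 vs siMESH1, 5 in siMESH1+siATF4 vs siATF4, 27 in siMESH1 vs siATF4 and 3 in the interaction. Calls were then 1 in siATF4 vs siNT, 5 in siMESH1+siATF4 vs siNT and 1 in siMESH1+siATF4 vs siMESH1, and the medians 0.044 in siMESH1+siATF4 vs siMESH1 and 0.029 in the interaction. The 5 calls were not all among those made with every probe set. The methods' t-test passed 50 members in siATF4 vs siNT and 22 in siMESH1+siATF4 vs siATF4 unadjusted, and after Benjamini-Hochberg 26 in siMESH1+siATF4 vs siMESH1 and 4 in siMESH1+siATF4 vs siATF4. Same-numbered arrays had correlations of their deviations from -0.19 to 0.095, with 0 of 18 over 0.1, so the numbers were not taken to pair the arrays. With the replicate number as a block 6 members passed in the interaction, and no other count of members moved by over 1.5 times.

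With each array left out in turn, the members called ranged from 1 to 4 in siMESH1 vs siNT, 2 to 3 in siATF4 vs siNT, 6 to 9 in siMESH1+siATF4 vs siNT, 0 to 2 in siMESH1+siATF4 vs siMESH1, 2 to 3 in siMESH1 vs siATF4 and 0 to 2 in the interaction, and were 0 throughout in siMESH1+siATF4 vs siATF4. Members past the test ranged from 39 to 49, 25 to 33, 34 to 42, 28 to 42, 36 to 51 and 4 to 10 in the same order, and from 4 to 11 in siMESH1+siATF4 vs siATF4. Medians ranged from -0.101 to -0.081, 0.036 to 0.053, -0.020 to 0.008, 0.054 to 0.079, -0.110 to -0.092 and 0.039 to 0.077 in that order, and from -0.060 to -0.029 in siMESH1+siATF4 vs siATF4. The median of probe sets, robust eBayes and the updated symbols moved no count of members by over 1.5 times. Where probe sets of a member disagreed in sign, MRPL57 in siMESH1+siATF4 vs siMESH1 and NDUFB8 in siMESH1 vs siATF4 had nonetheless passed the test. The cause of these shifts was not tested.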
